A study of Homo sapiens with 6 samples.

Results

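The insulin-like growth factor (IGF) receptors and binding proteins were examined in HSC-3, KON, and Ca9-22 cells, which are established lines derived from oral squamous cell carcinoma (OSCC). The set comprised 10 genes: the receptors IGF1R and IGF2R, the adaptor IRS1, and the binding proteins IGFBP1, IGFBP2, IGFBP3, IGFBP4, IGFBP5, IGFBP6, and IGFBP7. Its members were all probes that carry one of these gene names in the scanner files, which gave 11 probes of the 50599 on the array, 2 for IRS1 and 1 for each other gene. Each line was transfected with siDLEU1-2, a small interfering RNA against the long noncoding RNA DLEU1, or with a universal negative control siRNA (siCtrl), and RNA was collected at 72 h. No untransfected cells were measured, and a single siRNA sequence against DLEU1 was used on the arrays. For each line and siRNA, 100 ng of total RNA was hybridized to 1 one-color array, 6 arrays in all, so that only the 3 lines serve as replicates, with no error between cultures of the same line.

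IGF-1 and IGF-2 are secreted growth factors that activate the receptor tyrosine kinase IGF1R, which passes the signal through adaptors such as IRS1 to the PI3K-AKT and MAPK branches. IGF2R has no kinase and clears IGF-2 from the cell surface to lysosomes. The classical binding proteins, IGFBP1 to IGFBP6, hold IGFs in the extracellular fluid with high affinity, and proteases release the ligand from them. IGFBP7 is a related secreted protein that binds IGFs weakly.

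The sequences that bear on these measurements are the guide strand of the siRNA, the probe of the member that passed the test, and the DNA upstream of IGFBP3 and IGFBP6. In the antisense strand of siDLEU1-2, shown because an siRNA can also pair with other transcripts through its seed, the capitals mark the seed, bases 2 to 8 from the 5′ end.
siDLEU1-2 antisense: uUAAGUGCgauaaccccugua
The heptamer complementary to this seed, GCACTTA, is in 0 of the 11 probes and in 138 of the 50599 probes on the array (0.273%). Probes cover only 60 bases of a transcript, so this search says nothing about the rest of it. The IGFBP6 probe, annotated to NM_002178, lies on the plus strand at chr12:53494853-53494912 of hg19.
IGFBP6 probe: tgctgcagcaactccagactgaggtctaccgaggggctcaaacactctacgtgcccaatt
The 100 bases before the annotated start of IGFBP3, the binding protein with the widest difference between siRNAs, and of IGFBP6 are from the RefSeq table of GRCh38.p14, with each CG dinucleotide in capitals. They lie at chr7:45921273-45921372 on the minus strand and at chr12:53097567-53097666 on the plus strand.
IGFBP3 upstream: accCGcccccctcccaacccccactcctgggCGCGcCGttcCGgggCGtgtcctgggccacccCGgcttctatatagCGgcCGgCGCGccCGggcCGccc
IGFBP6 upstream: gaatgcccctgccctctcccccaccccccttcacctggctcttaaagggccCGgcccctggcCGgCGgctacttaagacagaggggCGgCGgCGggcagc
The IGFBP3 stretch holds 13 CG dinucleotides and the IGFBP6 stretch holds 6. In the full windows of 300 bases around the start, IGFBP3 has 36 and IGFBP6 has 12, and the median over 35116 such windows was 14 with quartiles of 4 and 28. The table matched 8 of the 10 genes, all but IGFBP1 and IGFBP7. Promoter activity and methylation were not measured.

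The signal given for a probe is the brightness of its spots after subtraction of the background by the scanner software. Levels are log2 values of this signal relative to the 75th percentile of the array, which was 200.5 to 256.8 on the 6 arrays. Between 43% and 45.7% of the probes on an array were well above background, and a dimmer probe has only an upper bound there. DLEU1 itself was lower after siDLEU1-2 than after siCtrl in all lines, at 30.7 against 571 for HSC-3, 87.8 against 1145 for KON, and 66.0 against 741 for Ca9-22. Markers fixed for squamous epithelium were well above background on all 6 arrays for 9 of 10 genes, and TP63 was on 5. By limma, 5 of these 10 genes were lower after siDLEU1-2 (KRT6A, TP63, SFN, DSG3, and PKP1) and CDH1 was higher. Of the fibroblast markers, COL1A1 was above background on all 6 arrays and passed limma's test as higher after siDLEU1-2 (mean log2 difference 1.45 ± 0.57, SD over 3 lines, adjusted p = 0.0423), whereas COL1A2, COL3A1, LUM, PDGFRA, and PDGFRB were on none. Of the endothelial markers, 0 of 4 genes were above background on all 6 arrays, and of the leukocyte markers 1 of 4 was, CD68, which was lower after siDLEU1-2 (mean log2 difference -1.39 ± 0.30, SD over 3 lines, adjusted p = 0.0278 by limma). The part of these marker changes in the results was not tested. In bulk RNA of a cell line, fewer cells that hold a transcript and less of it per cell cannot be told apart.

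Of the 11 probes, 7 probes of 6 genes were well above background on at least 1 array of every line and entered the test between siRNAs. IGFBP3 and IGFBP7 were above background on all arrays of HSC-3 and KON and on none of Ca9-22, IGFBP1 was above background in KON only, and IGFBP5 was not above background on any array. limma, fitted with cell line and siRNA as terms across 19956 probes, called 1 member probe higher after siDLEU1-2, that of IGFBP6, and 0 lower at an adjusted p of 0.05. At an unadjusted p below 0.05 by limma were 1 of the 7 member probes and 5893 of all 19956. Over all probes tested, 3.98% were called higher and 4.52% lower. The median log2 difference was -0.05 over the 7 member probes and 0.01 over all probes tested. Over 2-fold in all 3 lines, which 4.38% of all probes tested were, were IGFBP6, higher in each line, and IGFBP2, with HSC-3 and KON higher and Ca9-22 lower. Both lie near this threshold in 1 line, as IGFBP2 in KON has a bound of 1.95-fold, and IGFBP6 in HSC-3 was 2.02-fold, 1.80-fold with quantile normalization, and 1.98-fold with median centering.

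**Figure D1:**
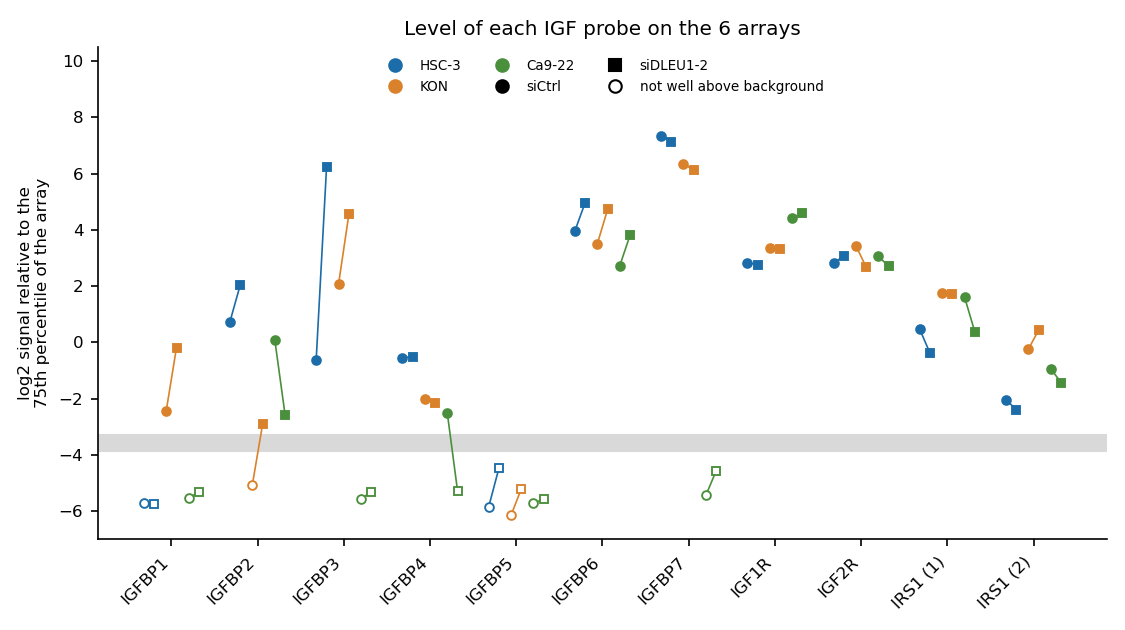
Level of each of the 11 probes on the 6 arrays, as the log2 signal relative to the 75th percentile of the array; circles are siCtrl, squares siDLEU1-2, colors the cell lines, and open symbols are arrays where the probe was not well above background. The gray band spans the lowest signals counted as above background on the 6 arrays. IGFBP3 in HSC-3 is at -0.61 after siCtrl and 6.22 after siDLEU1-2, IGFBP2 is higher after siDLEU1-2 in HSC-3 and KON but lower in Ca9-22, and IGFBP7 is at 7.33 in HSC-3 siCtrl cells and below background in Ca9-22.

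The receptors and IRS1 showed no called difference between siRNAs, although IGF1R and IRS1 differed between lines. Here and below, a p-value between lines rests on 1 array per siRNA of each line. It does not cover the spread between cultures of a line. IGF1R, the kinase receptor (chr15:99507366-99507425, plus strand, NM_000875), gave signals of 5452 (siCtrl) and 5872 (siDLEU1-2) in Ca9-22, 2614 and 2443 in KON, and 1549 and 1369 in HSC-3. Both arrays of a line lay close together, and the 3 lines did not overlap. The log2 difference between siRNAs was 0.02 ± 0.12 (SD, n = 3 lines), with an adjusted p of 0.933 by limma, and its sign depends on how the arrays are centered. Between lines, the mean log2 level of IGF1R in Ca9-22 was 4.52, above the 3.33 of KON (adjusted p = 0.0126 by limma) and the 2.80 of HSC-3 (adjusted p = 0.00644 by limma), while the difference of KON from HSC-3 was called with normexp alone (adjusted p = 0.0266 by limma, against 0.0664 as processed here). Hence the signal of the IGF1R probe was 3.28-fold higher in Ca9-22 than in HSC-3. It was 2.96-fold higher with median centering and 4.13-fold higher with quantile normalization. Receptor protein was not measured.

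IGF2R, the clearance receptor (chr6:160527114-160527173, plus strand, NM_000876), had mean log2 levels of 3.05 for KON, 2.95 for HSC-3, and 2.88 for Ca9-22. None of the 3 pairs of lines was called by limma (adjusted p = 0.671 to 0.869). With siCtrl given first, HSC-3 read 1546 and 1683, KON 2781 and 1556, and Ca9-22 2108 and 1584. The log2 difference was 0.24 for HSC-3, -0.77 for KON, and -0.36 for Ca9-22, a mean of -0.30 ± 0.51 (SD, n = 3 lines, adjusted p = 0.452 by limma). The lines thus did not share a direction.

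IRS1, which docks PI3K to the activated receptor, was measured by a pair of probes on the minus strand of chromosome 2 that gave different sizes. The probe at chr2:227600148-227600207 read 301.5 and 153.5 for HSC-3, 862 and 815 for KON, and 770 and 313 for Ca9-22. Its log2 difference was -0.86, -0.01, and -1.25 in these lines, a mean of -0.70 ± 0.63 (SD, n = 3 lines, adjusted p = 0.174 by limma), and in Ca9-22 the signal was 2.37-fold lower after siDLEU1-2. The probe at chr2:227596618-227596677 was dimmer, at 53.1 and 38.4 for HSC-3, 218 and 332 for KON, and 131.5 and 90.6 for Ca9-22. It gave -0.35, 0.68, and -0.49, a mean of -0.05 ± 0.64 (SD, n = 3 lines, adjusted p = 0.922 by limma). On both probes KON had the highest mean level and HSC-3 the lowest, 1.70 (adjusted p = 0.0215 by limma) and 2.31 (adjusted p = 0.0117 by limma) apart on the log2 scale. The call of the brighter probe is lost with a wider set of probes, those above background on 1 or more arrays, with no filter, or with no siRNA term (adjusted p = 0.0512 to 0.0825 by limma), and with normexp the dimmer probe differed 2.77-fold instead of 4.97-fold. Ca9-22 lay between them, and on the dimmer probe it was also below KON (log2 difference 1.28, adjusted p = 0.0441 by limma, and 0.0866 with the wider set of probes).

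IGFBP6, which prefers IGF-2 over IGF-1 as its ligand, rose after siDLEU1-2 in every line. The signal went from 3387 (siCtrl) to 6296 (siDLEU1-2) in HSC-3 cells, from 2900 to 6493 in KON cells, and from 1656 to 3408 in Ca9-22 cells. Within each line the siDLEU1-2 array was the higher one, while across lines the log2 levels overlapped, as Ca9-22 after siDLEU1-2 (3.81) was below HSC-3 after siCtrl (3.96). After centering, HSC-3 changed 2.02-fold, KON 2.35-fold, and Ca9-22 2.13-fold, which is a mean log2 change of 1.11 ± 0.11 (SD, n = 3 lines, SE 0.137, adjusted p = 0.0274 by limma). The call is lost when any 1 line is left out, at adjusted p = 0.0916 without HSC-3, 0.108 without KON, and 0.0851 without Ca9-22 by limma, while the log2 change stays between 1.05 and 1.16. When every probe detected on 1 or more arrays was included, the change was the same and the adjusted p was 0.122 by limma.

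The line with the highest IGFBP6 level was HSC-3, followed by KON and Ca9-22, at mean log2 levels of 4.47, 4.11, and 3.26. HSC-3 and KON were not told apart (adjusted p = 0.161 by limma), and Ca9-22 was below both (adjusted p = 0.0107 against HSC-3 and 0.0232 against KON by limma). Both calls are lost without the siRNA term (adjusted p = 0.237 and 0.404 by limma), and that against KON also with the wider set of probes (adjusted p = 0.0508 by limma). The probes whose levels over the 6 arrays were most like that of IGFBP6 were those of CRYGC (Pearson r = 0.996), DPP9 (0.993), and FNBP1 (0.992), given as a description since the 6 arrays share lines and siRNAs.

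IGFBP3, the main carrier of IGFs in the circulation, had the widest difference between siRNAs of the set, in HSC-3. Its probe (chr7:45952608-45952667, minus strand, NM_001013398) read 142 (siCtrl) and 14950 (siDLEU1-2) in HSC-3 cells, and 1092 and 5818 in KON cells. In Ca9-22 it gave 5.37 and 6.13, neither above background. The level after siDLEU1-2 was therefore 114-fold higher for HSC-3 and 5.60-fold higher for KON, log2 differences of 6.83 and 2.48. The HSC-3 value ranked 2 from the top among 20662 probes above background on both HSC-3 arrays, and the KON value ranked 112 of 21373.

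Because the IGFBP3 probe is printed in 10 spots, the error within an array could be read. In HSC-3 the 9 usable spots ran from 127.7 to 162 after siCtrl, and 10 spots ran from 14190 to 15490 after siDLEU1-2. In KON the ranges were 1038 to 1163 and 5563 to 6094. The spots of both siRNAs were far apart in each of these lines, and the standard error within arrays was 0.04 in HSC-3 and 0.02 in KON on the log2 scale. That error does not cover differences between cultures. With HSC-3 and KON alone, a fit chosen after seeing the data, the mean log2 difference was 4.66 (SE 1.09, adjusted p = 0.128 by limma), and 0 of 21314 probes were called, with 4505 at an unadjusted p below 0.05. With all 3 lines it was 3.19 (SE 1.42, adjusted p = 0.323 by limma), in a fit that included probes above background on at least 1 array.

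IGFBP2, which is often secreted by carcinoma cells, had opposite directions of difference between lines. Its probe (chr2:217529086-217529145, plus strand, NM_000597) read 364 (siCtrl) and 832 (siDLEU1-2) in HSC-3 cells, 7.77 and 33.2 in KON cells, and 268 and 40.5 in Ca9-22 cells. The level after siDLEU1-2 was thus 2.48-fold higher for HSC-3 and 6.39-fold lower for Ca9-22. In KON the siCtrl array was not well above background, so that the level after siDLEU1-2 was at least 1.95-fold higher (4.49-fold as measured).

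The spots of IGFBP2 did not overlap between siRNAs in any line. With siCtrl first, HSC-3 spots ran from 338 to 388 and from 772 to 902, KON spots from 3.78 to 13.0 and from 22.5 to 41.6, and Ca9-22 spots from 249 to 283.5 and from 34.9 to 47.1. The mean log2 difference over the lines was 0.27 ± 2.59 (SD, n = 3 lines, SE 0.984, adjusted p = 0.889 by limma). Among all probes tested, 0.215% were over 2-fold in all 3 lines in opposite directions, and the Ca9-22 value ranked 44 from the bottom of 20401 probes. With a normexp background correction, the directions were the same, at 2.18-fold higher for HSC-3, 1.36-fold higher for KON, and 2.99-fold lower for Ca9-22. Between lines, the mean IGFBP2 level was highest in HSC-3 and lowest in KON, where 1 of 2 arrays was above background. With the scanner's processed signal and the dim array at its floor, HSC-3 was at least 27.1-fold above KON (adjusted p = 0.022 by limma, fitted on the floor value). With normexp, a different background correction, it was 7.93-fold above. As measured it was 41.1-fold above (adjusted p = 0.0293 by limma). That call is lost when probes detected on 1 or more arrays are included (adjusted p = 0.0656 by limma). Ca9-22 was not told apart from HSC-3 or KON (adjusted p = 0.146 and 0.147 by limma). Its level was followed most closely over the 6 arrays by probes of PPIAL4A (Pearson r = 0.998), PLEKHF2 (0.995), and HSD17B7 (0.985), again a description.

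**Figure D2:**
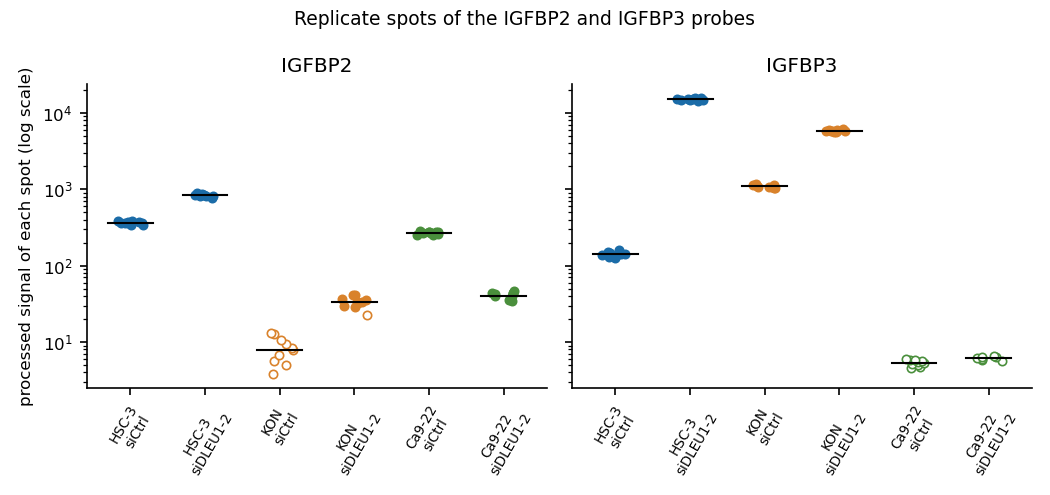
Processed signal of each usable replicate spot of the IGFBP2 and IGFBP3 probes on the 6 arrays, on a log scale; bars are geometric means, and open points are spots not well above background. IGFBP2 spots lie at 338–388 (siCtrl) and 772–902 (siDLEU1-2) in HSC-3 and at 249–283.5 and 34.9–47.1 in Ca9-22, and IGFBP3 spots are at 14190–15490 in HSC-3 after siDLEU1-2 and below background in Ca9-22.

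IGFBP1, a binding protein of liver and endometrium that insulin represses, was detected in KON only. There its signal was 47.3 after siCtrl and 215.6 after siDLEU1-2, a 4.79-fold higher level from 1 spot per array (2.50-fold with the normexp correction), and it ranked 150 of 21373 probes. The other 4 arrays read 3.77 to 6.12 and were not above background. As means over both siRNAs, the level in KON was at least 4.84-fold above HSC-3 and at least 4.15-fold above Ca9-22. On the siCtrl arrays alone these bounds were 2.21 and 2. No test is given, since the probe was detected through KON alone.

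IGFBP4, an inhibitor of IGF action cleaved by the protease PAPPA, read 149 and 142 for HSC-3, 63.8 and 55.1 for KON, and 44.7 and 6.24 for Ca9-22 (chr17:38613308-38613367, plus strand). The HSC-3 and KON pairs were nearly level, with log2 differences of 0.04 and -0.14. In Ca9-22 the siDLEU1-2 array was not above background, so the level there was at least 1.74-fold lower with the scanner's processed signal (6.92-fold as measured) and 1.51-fold lower with normexp. The mean log2 difference was -0.96 ± 1.59 (SD, n = 3 lines, adjusted p = 0.361 by limma), and it was -0.05 without Ca9-22, -0.20 with normexp, and -0.30 with the floor. With the scanner's processed signal and the dim array at its floor, the mean level in HSC-3 was at least 5.17-fold above that of Ca9-22 (adjusted p = 0.00533 by limma). It was 2.81-fold above with normexp and 10.3-fold as measured (adjusted p = 0.0291 by limma), a call lost with the wider set of probes (adjusted p = 0.0644 by limma). KON was 2.94-fold below HSC-3, which was not called without the floor (adjusted p = 0.164 by limma). It was called with the floor (adjusted p = 0.0125), with normexp (adjusted p = 0.0165), and in a fit on the 4 arrays of both lines (adjusted p = 0.0149 by limma). The floor alters only the Ca9-22 siDLEU1-2 array, so the difference between HSC-3 and KON is the same with it. The p-values with the floor thus rest on a value put in for that array. KON and Ca9-22 were not told apart (adjusted p = 0.127 without and 0.0655 with the floor by limma).

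IGFBP7 had the widest difference between lines. Its probe (chr4:57897423-57897482, minus strand, NM_001553) read 34980 and 27830 for HSC-3 and 20940 and 17000 for KON, whereas for Ca9-22 it read 5.83 and 10.4, not above background. As means over both siRNAs, the level was at least 1540-fold higher in HSC-3 and at least 776-fold higher in KON than in Ca9-22. HSC-3 and KON differed by 0.99 on the log2 scale, at 7.33 and 7.12 for HSC-3 and 6.35 and 6.12 for KON. This was not called (adjusted p = 0.137 by limma, over 27993 probes above background on at least 1 array). The error in that fit also includes the dim Ca9-22 arrays. IGFBP3 was likewise detected in HSC-3 and KON and not in Ca9-22. On the siCtrl arrays its level was at least 7.10-fold higher in HSC-3 and at least 46.2-fold higher in KON than in Ca9-22, and on the siDLEU1-2 arrays at least 729-fold and 233-fold higher. No test against Ca9-22 is given for IGFBP3 or IGFBP7, since both were detected through the other lines alone. Between siRNAs, the log2 difference of IGFBP7 was -0.21 in HSC-3 and -0.23 in KON. IGFBP5 (chr2:217537167-217537226, minus strand) read 3.65 to 9.11 on the 6 arrays, and no fold is given.

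Members over 2-fold were also counted within each line. In HSC-3, 3 of the 9 member probes above background on at least 1 array were over 2-fold higher, those of IGFBP2, IGFBP3, and IGFBP6, against 19.2% of all such probes in either direction. In KON, 4 of 10 were, with IGFBP1 besides these genes, against 19%. In Ca9-22, IGFBP6 was higher and IGFBP2, IGFBP4, and one IRS1 probe were lower, 4 of 7, against 19.5%. With dim arrays at their floor these counts were 3 of 9 in HSC-3 (15.7% of all such probes), 3 of 10 in KON (15.6%), without IGFBP2, and 3 of 7 in Ca9-22 (15.5%), without IGFBP4. With 1 array per siRNA these shares have no test. Between lines, 3 of the 7 member probes tested were called in each of the 3 contrasts, where 36.2% (HSC-3 against KON), 36.6% (HSC-3 against Ca9-22), and 33.2% (KON against Ca9-22) of all probes were called.

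**Figure D3:**
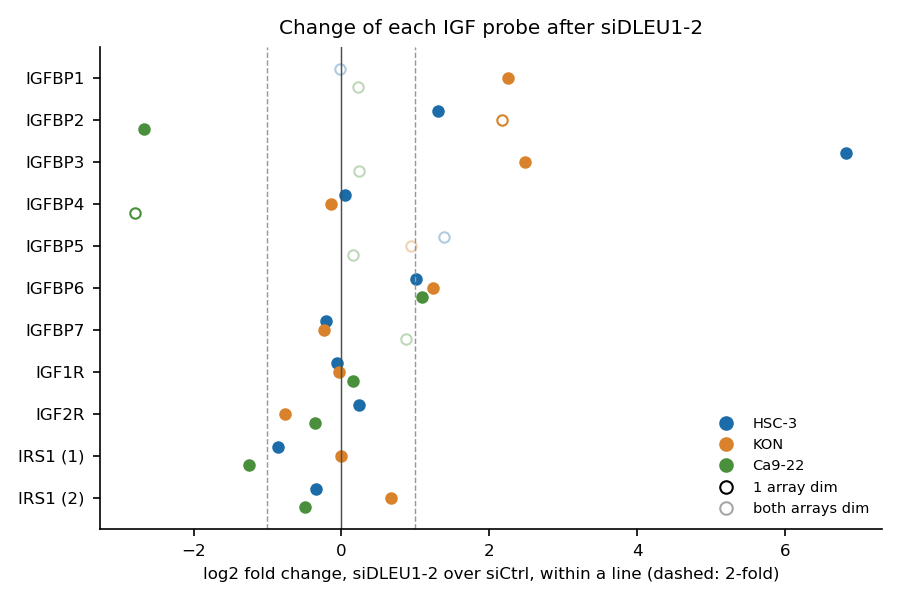
Log2 fold change of each of the 11 probes within each line, siDLEU1-2 over siCtrl, with dashed lines at 2-fold; open points have 1 array not well above background and pale points have both. The 3 IGFBP6 points lie together at 1.01 to 1.23, whereas those of IGFBP2 run from -2.68 to 2.17 and those of IGF1R stay within 0.16 of 0.

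The other genes of IGF and insulin signaling were taken from a list of 46 genes with 72 probes, of which 52 probes of 34 genes passed the filter. limma called 6 probes of 5 genes higher and 2 probes of 1 gene lower, 15.4% of those tested against 8.5% of all probes. Counted among them is INSR, which entered the test through the siDLEU1-2 arrays on which it is high. The median log2 difference of the list was -0.05. Of the ligands, IGF1 was not above background on any array. IGF2 read 3.87 and 21.7 for HSC-3, 5924 and 9432 for KON, and 47.5 and 381 for Ca9-22 on the probe at chr11:2150394-2150453, where transcripts joined with INS can also be read. All lines had the higher value after siDLEU1-2, with log2 differences of 2.61, 0.74, and 3.05, but the mean of 2.13 ± 1.23 was not called (adjusted p = 0.065 by limma), and the HSC-3 siCtrl array was not above background, which leaves a fold of at least 1.3 there. With the normexp correction the mean was 1.11, with 0.56 for HSC-3 and 2.05 for Ca9-22. A further IGF2 probe was above background in KON only and gave 0.19.

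INSR, the insulin receptor, which also binds IGF-2 in one isoform, was dim on every siCtrl array and well above background on every siDLEU1-2 array. For HSC-3 it read 19.4 and 90.4, for KON 13.5 and 89.0, and for Ca9-22 6.33 and 64.8. The log2 differences were 2.34, 2.79, and 3.40 as measured, or a mean of 0.87 with the normexp correction. With the dim arrays at their floor, the scanner's processed signal gave a level at least 4.25-fold higher over the 3 lines. The INSR call is given as a count only, since the probe entered the test through the siDLEU1-2 arrays on which it is high. IRS2, the adaptor related to IRS1, rose by 1.17 ± 0.19 on the log2 scale (SD, n = 3 lines, adjusted p = 0.0291 by limma), from 327 to 769 in HSC-3, 616 to 1148 in KON, and 469.5 to 1036 in Ca9-22.

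Downstream, PIK3CA, the catalytic subunit of PI3K, fell on both of its probes, with log2 changes of -1.54 ± 0.42 (SD, n = 3 lines, adjusted p = 0.0305 by limma) and -1.13 ± 0.45 (adjusted p = 0.049 by limma). RHEB, the GTPase that activates mTORC1, rose by 1.10 ± 0.21 on the probe of its mRNA (n = 3 lines, adjusted p = 0.0307 by limma). A further probe carries the name RHEB but lies on the opposite strand, so its rise of 0.69 ± 0.05 (adjusted p = 0.0492 by limma) may not be that of the gene. The calls of the weaker PIK3CA probe and of the opposite-strand RHEB probe do not hold in every scaling, with an adjusted p by limma of 0.0518 for PIK3CA with quantile normalization and of 0.051 to 0.0862 for RHEB with quantile normalization, both other centerings, and normexp. CTSD, a lysosomal protease that can cleave binding proteins, rose by 1.08 ± 0.15 (adjusted p = 0.0301 by limma). IGF2BP1, which binds IGF2 mRNA, rose by 0.92 ± 0.01 (adjusted p = 0.0315 by limma). By role, calls stood at 0 of 1 probe tested for ligands, 1 of 2 for receptors, 1 of 6 for adaptors, 0 of 4 for phosphatases, 4 of 33 for the PI3K-AKT-mTOR branch, 1 of 2 for binding protein partners and proteases, and 1 of 4 for the IGF2 mRNA-binding proteins. Each of these 8 calls was lost in fits that left out HSC-3 or KON, or that used the wider set of probes or no filter. Without Ca9-22 all but that of INSR were lost, and none was left with the filter set on HSC-3 and KON alone.

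**Figure D4:**
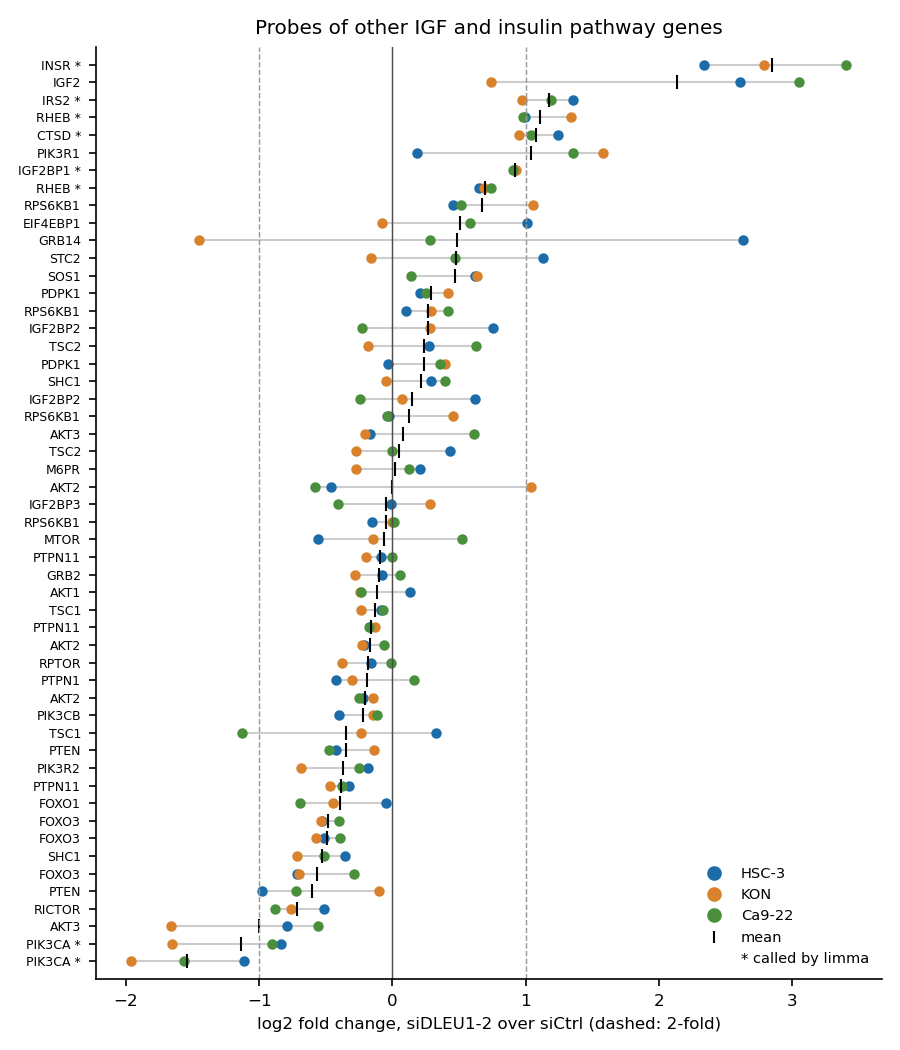
Log2 fold change within each line, siDLEU1-2 over siCtrl, of the 52 tested probes of other IGF and insulin pathway genes, sorted by their mean (black tick); stars mark probes called by limma and dashed lines 2-fold. The INSR points and the HSC-3 point of IGF2 rest on siCtrl arrays not above background, IRS2 has a mean of 1.17 and PIK3CA one of -1.54, and most probes lie between the dashed lines.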

How the data were processed

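Per the file headers, each array was scanned and read with Agilent Feature Extraction 10.7.3.1 (10.7 in the submitters' processing notes). The authors deposited spot intensity values, of which the processed signal is on a linear scale, background-subtracted and not normalized between arrays. They analyzed these in GeneSpring GX, with a normalization not given in the sources used here. The series table the authors deposited holds the same intensity per probe and was used as an alternative. Probe positions are those of the files, on hg19, and sequences upstream of genes are from a RefSeq table of GRCh38.p14.

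Here, outlier spots were left out, spots of a probe were averaged as log2 values, and the 75th percentile of each array was subtracted. No spot was saturated (0). Probes with 50% or more of their spots flagged by the software as well above background were taken as such. Of 50544 usable probes, 19956 above background on at least 1 array of every line were kept. limma 3.58.1 in R 4.3.3 (lmFit, eBayes) was fitted with siRNA and cell line as terms, and p-values were adjusted over these probes (Benjamini-Hochberg, threshold 0.05). Lines were compared in the same fit, averaged over siRNAs. The error of these contrasts is the spread of the siRNA difference over the lines, and no line has a further culture. The line served as the block, since a siCtrl and a siDLEU1-2 array share each line, and deviations from the siRNA means correlated at 0.828, 0.813, and 0.822 within the pairs of HSC-3, KON, and Ca9-22. Where a probe was dim, "at least" gives the bright mean over the higher of the dim signal and the lowest signal above background. Nothing in the labels names separate cultures beyond the lines, 1 slide held all arrays, and the number of arrays limits the precision. The fit was tested on simulated data.

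Every member probe is reported. Of the pathway list, IGF1, IGF2, INSR, IRS2, and each gene called or over 2-fold in all lines were named, with DLEU1, the cell type markers, and the 3 named genes most correlated with each member called or over 2-fold in all 3 lines. The members and lists were chosen with earlier results of these data known. Alternatives were quantile normalization, median centering, centering on probes detected on all arrays, normexp (offset 50), other filters, a detection floor, each line left out, no block, a plain test without moderation after the methods, a 3-fold threshold, and gene means.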

Additional observations from a re-analysis of the deposited data

Results flagged for a closer look

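The log2 difference of IGFBP2 after siDLEU1-2 was 1.31 for HSC-3, 2.17 for KON, and -2.68 for Ca9-22, so the HSC-3 and KON arrays moved one way and the Ca9-22 arrays the opposite way. Whether the lines differ was not tested, as a single array per siRNA and line gives no error for it. In KON the siCtrl array was not well above background.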

How the results depend on the processing

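The call of IGFBP6, the single member probe called by limma, fell to 0 with probes above background on at least 1 of 6 arrays, without any filter, without each line in turn (0 to 0), without the replicate block, and with the methods' unmoderated test. The 8 pathway probes fell to 0 in the same settings and to 0 to 1 with a line left out, INSR being called without Ca9-22; they were 6 with quantile normalization, 7 with either other centering, and 10 with normexp. Over all probes, 1697 calls fell to 0 there (5547, 6816, 1357, and 1373 at an unadjusted p below 0.05), and to 0 to 244 with a line left out (244 without Ca9-22). The adjusted limma p of IGFBP6 was 0.745 without the block. With the filter set on HSC-3 and KON alone, an alternative added after seeing the data, calls were 0 for members, pathway, and all probes. There 1623 probes were over 2-fold in both lines, with 3 member probes among them (IGFBP2, IGFBP3, and IGFBP6). Member probes over 2-fold in all lines went from 2 to 1 with quantile normalization, median centering, or centering on probes detected on all arrays (IGFBP2), to 1 with a filter on all 6 arrays or the detection floor (IGFBP6), and to 0 with normexp or a 3-fold threshold. All probes over 2-fold went from 874 to 399 with normexp, 258 at 3-fold, and 1307 to 1377 with a line left out (1313 without KON). Between lines, calls went from 3 to 5 for HSC-3 against KON with normexp (IGF1R and IGFBP4 added), and from 3 to 1 for HSC-3 or KON against Ca9-22 without the siRNA term. Other counts were within 2 to 4, but IGFBP2 (HSC-3 and KON) and IGFBP4 (HSC-3 and Ca9-22) lost their calls with the wider or no filter and left the test with the stricter one, IGFBP4 also in the 4-array fit, IGFBP6 (KON and Ca9-22) with the wider or no filter, IGFBP6 (HSC-3 and Ca9-22) without the siRNA term, the brighter IRS1 probe (HSC-3 and KON) with these and without the siRNA term, and the dimmer IRS1 probe (KON and Ca9-22) with these, with detected-probe centering, and in the 4-array fit. Among the 7 member probes tested, signs turned for IGFBP2 (-0.0055 with normexp, -0.13 with the floor, -0.25 without HSC-3, -0.68 without KON), IGF1R (-0.0066 with quantile normalization, -0.0488 with median centering, -0.0023 with detected probes, -0.0434 without Ca9-22 under either filter), and the dimmer IRS1 probe (0.0326 with normexp, 0.0948 without HSC-3, 0.16 without Ca9-22). The mean of IGFBP7 was 0.15 with all lines and -0.22 without Ca9-22, where it is dim. Median centering moved the median of all probes by -0.07. Causes were not tested. Dim probes, among them IGFBP1, IGFBP4 in Ca9-22, IGFBP2 in KON, and INSR after siCtrl, give bounds only.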
